A study of Mus musculus with 42 samples.

Results

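The genes described here are the expressed members of the mouse Zfp family, which are genes whose symbol is Zfp followed by a number. A member had to reach at least 5 FPKM (fragments scaled by transcript length and by the size of the library), maternal and paternal alleles summed, in at least 1 of 7 wild-type stages or tissues. Zfp42 and Zfp57 were left out of the set. Of 331 family symbols in a table of 24083 genes, 125 met this rule, and 8166 genes of the whole table reached the same level. The members were therefore selected on their measured level, and the levels and ratios among these 7 columns are given as descriptions. Just inside the threshold lay Zfp362 at a highest value of 5.02 FPKM and Zfp84 at 5.10 FPKM, and just outside it lay Zfp763 at 4.96 FPKM and Zfp758 at 4.88 FPKM. Of the 206 family symbols under the rule, 20 were listed at 0 in all 7 columns.

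Most Zfp genes encode C2H2 zinc finger proteins, in which a loop held by a pair of cysteines, a pair of histidines and a zinc ion contacts DNA, so that a row of fingers reads a stretch of sequence. Many also carry a KRAB domain, which recruits the corepressor Trim28 and, through it, the histone methyltransferase Setdb1 and heterochromatin proteins. KRAB zinc finger proteins are known for silencing retroelements and for protecting imprints in the early embryo, and their genes sit in clusters that arose by duplication. The symbol is shared by proteins of other kinds, among them RNA-binding and ribosome-associated factors.

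The study profiled gene expression in mouse embryos from the cross C57BL/6N X PWK/PhJ, so that transcripts could be split by parental allele, and its title concerns the architecture of the inactive X chromosome. Wild-type female material comprised 3 samples of 8-cell embryos, 3 of morulae, 2 of inner cell mass (ICM) and 3 of trophectoderm (TE) from E3.5 blastocysts. It further comprised 1 sample of E6.5 epiblast (Epi), 3 of E6.5 visceral endoderm (VE), 2 of E6.5 extraembryonic ectoderm (ExE) and 1 of E9.5 yolk sac. A second table held wild-type control morulae of the same cross, 4 male and 3 female samples, beside 4 samples of female morulae with the genotype Xp XRRa KO. The labels do not say what XRRa is or how the deletion was made, and no gene in the table was tied to it (Xrra1 is a different gene), so the deletion itself was not checked here. A further table came from 13 female E7.5 ExE samples called EedmNull, from Eedfl/fl;Gdf9-Cre mothers (Gdf9-Cre is active in the oocyte) and WT PWK/PhJ fathers. It held only 1052 X-linked genes and none of the 125 members, which are all autosomal.

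In the stage and morula tables the authors gave 1 value per allele for each group, with the replicates merged. There is therefore no spread between samples, and no standard deviation or p-value can be given for any value below. In its place a fixed rule of size was used. A member was called higher or lower where at least 1 of the columns compared reached 5 FPKM and the ratio of total FPKM plus 1 was at least 2, and each count is set beside the share of all genes past the same rule. A fold on FPKM plus 1 understates the change of low genes. The number of reads behind each column is unknown, and in such bulk samples fewer expressing cells and less RNA per cell cannot be told apart.

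Defining markers matched most tissue labels. Krt8 of the trophectoderm stood at 1502 FPKM in TE, Nanog at 157 FPKM in ICM, Slc7a3 at 209 FPKM in Epi, Apoa1 at 1324 FPKM in VE and Elf5 at 124 FPKM in ExE. The columns also held markers of neighbouring tissues. The summed level of the 5 trophectoderm markers was 1184 FPKM in ICM against 3646 FPKM in TE, with all 5 at 5 FPKM or more in both. The 4 inner cell mass markers summed to 429 FPKM in ICM and 32.1 FPKM in TE, where Fgf4 was listed at 0. The 5 visceral endoderm markers summed to 233 FPKM in ExE and 2693 FPKM in VE, and the epiblast marker Utf1 stood at 276 FPKM in ExE. Fgf5, another epiblast marker, was higher in VE (91.9 FPKM) than in Epi (60.8 FPKM). The part of such mixing in the levels of the Zfp genes was not tested. The yolk sac column listed 86 of the 125 members at 0, and also 56.6% of all genes past the same level rule. General genes such as Trim28 and Hdac1 were among the latter, and the column is given below only for its allele values.

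Of the 125 members, 63 carried a KRAB-type pattern in an open reading frame with at least 1 C2H2 finger, in GENCODE M21 transcripts (GRCm38). These 63 had a median of 11 fingers per gene, with a range of 2 to 23. The other 62 had a median of 6 fingers, from 0 to 26, and include Zfp36, with no C2H2 finger found. A gene without a match lacks only these letters, and may still carry a diverged KRAB domain. By chromosome, 28 members lay on chromosome 7 and 18 on chromosome 17, of which 13 and 16 carried the pattern, and 9 lay on chromosome 13, with 7. For 13 members at least 20% of the 75-base words of their transcripts also occurred in another gene, so their values may include reads of a near copy. Zfp97 and Zfp960 were the closest pair of members, with 74% and 75.3% of words shared with each other, and Zfp600 shared 75.2% with Rex2. All words of Zfp935 lay also in the annotated gene Gm49359.

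The promoters of 5 members are shown because these genes stand for the main patterns below: a morula peak (Zfp296), a level in ICM well above that in TE (Zfp428, Zfp819, Zfp820), and a level almost confined to ExE among the 7 columns (Zfp382). They were chosen after their values were seen. Each is the 250 bases before the start site from RefSeq (GRCm38.p6, not the mm9 build of the expression values), written 5′ to 3′ on the strand of the gene. Capitals mark matches, on either strand, to the octamer ATGCAAAT bound by POU factors such as Pou5f1, the GC box GGGCGG, the CCAAT box CCAAT, the ETS site CCGGAAG and the E-box CACGTG.
Zfp296, chr7:19577037-19577286, plus strand: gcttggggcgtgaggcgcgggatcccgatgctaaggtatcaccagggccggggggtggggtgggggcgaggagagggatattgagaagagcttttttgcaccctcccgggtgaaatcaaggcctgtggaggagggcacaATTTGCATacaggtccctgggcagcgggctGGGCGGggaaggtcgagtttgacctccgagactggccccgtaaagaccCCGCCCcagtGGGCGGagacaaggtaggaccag
Zfp428, chr7:24506837-24507086, plus strand: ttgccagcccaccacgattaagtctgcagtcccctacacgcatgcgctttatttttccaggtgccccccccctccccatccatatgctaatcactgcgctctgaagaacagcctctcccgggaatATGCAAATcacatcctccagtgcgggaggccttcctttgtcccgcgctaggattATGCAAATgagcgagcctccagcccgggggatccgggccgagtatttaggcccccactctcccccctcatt
Zfp819, chr7:43606919-43607168, plus strand: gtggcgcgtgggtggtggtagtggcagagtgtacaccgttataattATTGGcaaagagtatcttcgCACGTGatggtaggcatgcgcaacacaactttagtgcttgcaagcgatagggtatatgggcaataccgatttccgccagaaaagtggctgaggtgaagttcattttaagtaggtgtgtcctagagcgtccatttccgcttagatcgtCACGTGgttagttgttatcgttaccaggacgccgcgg
Zfp820, chr17:21845760-21846009, minus strand: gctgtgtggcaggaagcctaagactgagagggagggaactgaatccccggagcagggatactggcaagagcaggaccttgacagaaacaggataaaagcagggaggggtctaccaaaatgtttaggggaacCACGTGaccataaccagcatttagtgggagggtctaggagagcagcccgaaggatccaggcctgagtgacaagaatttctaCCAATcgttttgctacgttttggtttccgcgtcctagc
Zfp382, chr7:30121682-30121931, plus strand: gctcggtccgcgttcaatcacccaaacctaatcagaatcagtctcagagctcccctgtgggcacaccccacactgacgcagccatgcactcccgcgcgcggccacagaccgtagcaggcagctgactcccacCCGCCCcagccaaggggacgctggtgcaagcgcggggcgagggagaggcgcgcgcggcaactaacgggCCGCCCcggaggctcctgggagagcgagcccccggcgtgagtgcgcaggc

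The Zfp428 promoter held 2 octamers, and that of Zfp296 held 1 octamer and 3 GC boxes. The Zfp819 window held 2 E-boxes and 1 CCAAT box, and the Zfp382 window 2 GC boxes. A promoter was found for 104 members. The octamer occurred in 6 of them, or 5.77%, against 1.81% of 27025 genes: Zfp345, Zfp296, Zfp428, Zfp791, Zfp207 and Zfp263. All 6 had a higher value in ICM than in TE, as had 69 of the 91 members compared there. The size rule described above was passed in that direction by 3 (Zfp296, Zfp428 and Zfp263), with Zfp345 and Zfp791 under 5 FPKM in both columns. GC boxes were found in 51% of members against 35.4% of genes, CCAAT boxes in 53.8% against 37.5%, ETS sites in 17.3% against 7.83%, and E-boxes in 12.5% against 6.86%. Median GC content was 55.4% in the members' windows and 52.4% over all genes. The 27025 genes were taken without regard to expression, while the members were chosen for it. Motifs were not counted among the genes past the same level rule, so these differences cannot be read as particular to Zfp promoters. A match describes the letters only, and binding was not measured.

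Zfp genes were mostly expressed at low levels. More of them reached 5 FPKM in ICM than in any other column, while at 1 FPKM the count was 112 in ICM, 114 in Epi, 114 in VE and 118 in ExE. The median member stood at 3.38 FPKM in 8-cell embryos, 5.41 in morulae, 7.28 in ICM and 4.10 in TE. At E6.5 it stood at 5.72 FPKM in Epi, 4.35 in VE and 6.12 in ExE. In ICM 82 members reached 5 FPKM, 65.6% of the set, against 70.5% of the genes that met the same level rule. In TE it was 53 members, 42.4%, against 69.4%, and in VE 52 members, 41.6%, against 68.4%. The members thus fell furthest behind other expressed genes in TE and VE, and came closest to them in ICM and Epi, where 57.6% stood beside 62.8%.

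The column of the highest level showed the same 2 tissues. ICM held the highest level of 32 members (25.6%, against 13.7% of all genes past the level rule), and Epi that of 30 members (24%, against 12.7%). TE held the highest level of only 3 members, Zfp7, Zfp251 and Zfp692 (2.4%, against 16.2%), and VE that of 8 (6.4%, against 13.2%). The remaining members peaked in morulae (19, or 15.2%, against 13.8%), ExE (18, or 14.4%, against 19.5%) and 8-cell embryos (15, or 12%, against 10.9%). Of the 15 genes highest at the 8-cell stage 10 carried the KRAB pattern, among them Zfp820, Zfp960, Zfp936 and Zfp51. Breadth varied widely: 18 members reached 5 FPKM in all 7 columns and 31 in a single column. Over the 112 members above 0 in every column, the highest value was a median of 6.52 times the lowest, from 1.49 times in Zfp617 to 592 times in Zfp819. The other 13 members were listed at 0 in at least 1 column. Breadth and this spread were not counted over all genes.

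**Figure D1:**
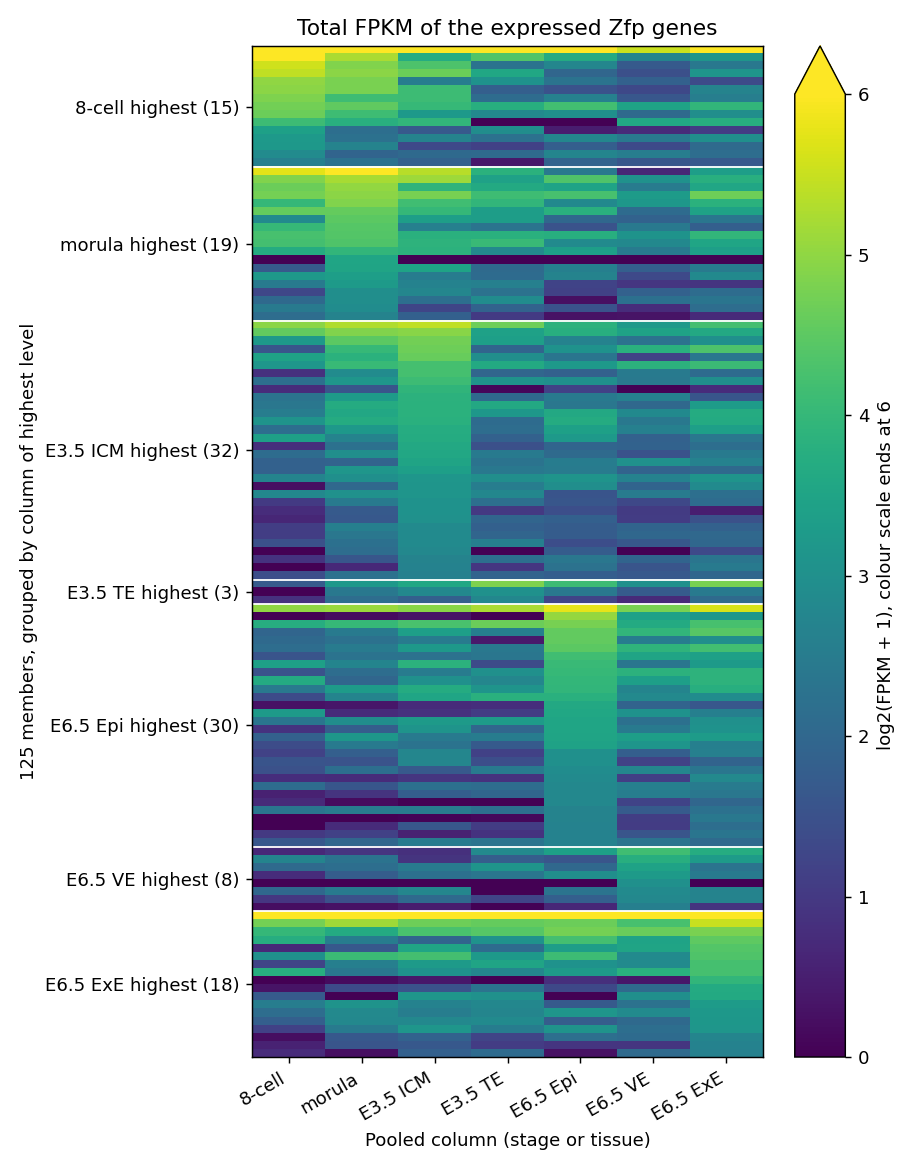
Total FPKM of the 125 members (rows, grouped by the column of their highest level, with the number of members in brackets) in the 7 pooled columns, coloured by log2(FPKM + 1). The blocks of 32 members highest in ICM and 30 highest in Epi are the largest, and 3 members are highest in TE.

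**Figure D2:**
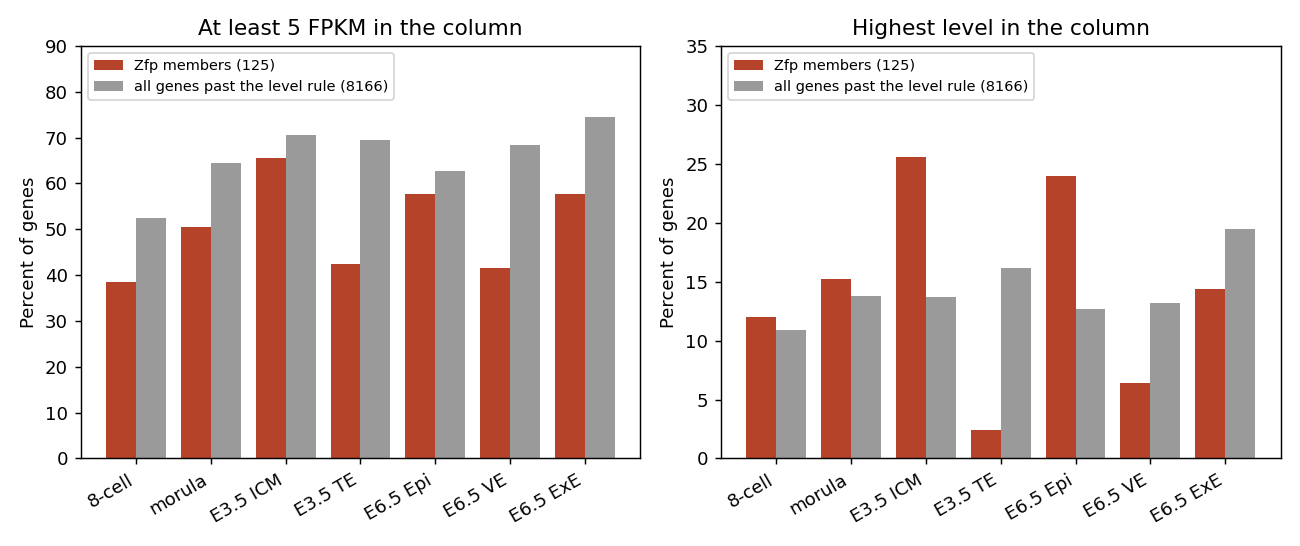
Left, percent of the 125 members and of 8166 genes past the same level rule that reached 5 FPKM in each pooled column. Right, percent with their highest level there: members exceed all genes in ICM (25.6% against 13.7%) and Epi (24% against 12.7%) and fall under them in TE (2.4% against 16.2%).

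The 10 members with roles in RNA and translation spanned the range of the set, from Zfp706 and Zfp207, with values above 100 FPKM, to Zfp346, which did not exceed 5.61 FPKM. Zfp706, a small protein linked to translation, was at 368 FPKM in 8-cell embryos, 235 in morulae, 133 in ICM and 125 in TE. It was then at 83.6 FPKM in Epi, 44.8 in VE and 128 in ExE, so the 8-cell value was the highest and the VE value the lowest. Zfp207, a spindle assembly factor known as BuGZ, stood at 65.7 FPKM in 8-cell embryos and between 80.01 FPKM (VE) and 195 FPKM (ExE) elsewhere. Zfp622, which acts in maturation of the large ribosomal subunit, was between 10.1 FPKM in VE and 25.5 FPKM in 8-cell embryos, and Zfp593, another factor of that subunit, between 8.78 FPKM in VE and 30.1 FPKM in morulae. Both were lowest in VE. Zfp326, a component of a complex that couples splicing to transcription, was below 1 FPKM in 8-cell embryos, morulae and ICM, at 6.11 FPKM in TE, and from 9.70 to 16.99 FPKM in the E6.5 tissues. Zfp36, or tristetraprolin, which promotes decay of AU-rich mRNAs, lay between 2.24 FPKM in Epi and 8.84 FPKM in ExE. Zfp598, the ubiquitin ligase that marks collided ribosomes, was listed at 0 in TE and lay between 3.02 and 6.31 FPKM in the others. Of the 10 members of this list 9 entered the ICM over TE comparison. There 1 was higher (Zfp598) and 1 lower (Zfp326), where 13% and 11.8% of all genes passed the same size rule.

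The 7 known or candidate repressors of retroelements and imprinted loci differed in how widely they were detected. Zfp809, which recognises the primer binding site of retroviral DNA, was at 15.0 FPKM in 8-cell embryos, 28.1 in morulae, 16.9 in ICM, 14.6 in TE, 6.21 in Epi, 8.02 in VE and 13.2 in ExE. Zfp568, a repressor of a placental Igf2 transcript, was between 7.84 FPKM in 8-cell embryos and 17.8 FPKM in ICM, and Zfp445, which maintains imprints, between 2.65 FPKM in 8-cell embryos and 10.3 FPKM in Epi. Zfp932, a repressor of endogenous retroviruses, was at 67.2 FPKM in 8-cell embryos, 36.8 in morulae, 12.2 in ICM, 19.6 in TE and 5.51 in VE. Zfp819, known from pluripotent cells, was at 0.705 FPKM in 8-cell embryos, 2.02 in morulae, 14.2 in ICM, 0.0744 in TE, 1.23 in Epi, 0.0241 in VE and 0.684 in ExE. Only the ICM column reached 5 FPKM for this gene among the 7. Zfp600 was listed at 0 in 8-cell embryos, TE and VE, and stood at 3.45 FPKM in morulae, 6.01 in ICM, 2.34 in Epi and 1.498 in ExE. Between ICM and Epi, 4 of the 7 repressors were lower in Epi and 1 was higher, Zfp445, where 28.3% and 14.2% of all genes passed the same size rule.

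Genes tied to pluripotency did not share a single course. Zfp296, a partner of pluripotency factors, was at 52.7 FPKM in 8-cell embryos, 135 in morulae, 39.6 in ICM, 13.3 in TE, 4.34 in Epi, 0.575 in VE and 9.37 in ExE. Its promoter, shown above, carried an octamer. The morula value was not matched by the morula table, where control female morulae had 44.8 FPKM, control male morulae 28.6 and the knockout described below 36.8. Zfp281, which acts at the exit from naive pluripotency, was highest in the E6.5 tissues, at 21.5 FPKM in Epi, 17.3 in ExE and 14.0 in VE, and did not exceed 8.40 FPKM earlier. Zfp143, a promoter-binding factor, was highest in morulae at 31.7 FPKM and lowest in VE at 4.67 FPKM. Zfp217 was highest in ICM at 13.4 FPKM, with 3.12 FPKM in TE. Zfp830, required for survival of the early embryo, lay between 4.78 FPKM in 8-cell embryos and 13.2 FPKM in ICM.

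At E3.5 more members were higher in ICM than in TE, and by more than other genes. Of 91 members that reached 5 FPKM in ICM or TE, 34 were higher in ICM (37.4%, against 13% of 6400 genes) and 4 were lower (4.4%, against 11.8%). Since Zfp genes are low, the same was counted among genes whose higher column lay from 5 to under 50 FPKM: 34 of 89 members were higher in ICM, against 14.1% of genes, and 4 were lower, against 12%. The median log2 ratio was 0.62 over members and 0.10 over all genes. The members higher in ICM were led by Zfp819 (14.2 FPKM in ICM and 0.0744 in TE, log2 ratio 3.83), Zfp428 (24.7 and 2.79, 2.76), Zfp566 (13.5 and 1.57, 2.50), Zfp820 (16.2 and 2.52, 2.29) and Zfp553 (17.7 and 2.97, 2.24). Zfp414, Zfp600 and Zfp598 also passed but were listed at 0 in TE, and get no ratio here. The 4 genes lower in ICM were Zfp326 (0.787 and 6.11 FPKM, log2 ratio -1.99), Zfp947 (-1.27), Zfp7 (-1.26) and Zfp386 (-1.14).

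This gap was not limited to the KRAB genes: 19 of 45 with the pattern and 15 of 46 without it were higher in ICM, with median log2 ratios of 0.67 and 0.56. By chromosome, 9 of 13 on chromosome 17 and 9 of 22 on chromosome 7 were higher, and other genes of these chromosomes were not counted. The count was 31 without members listed at 0 in a column and 30 without those sharing 20% or more of their words with another gene, and it was 29 when ratios were centred on the median of all genes (31.9%, against 11.1%), with 5 lower (background 13.4%). As given above, the ICM column also held trophectoderm markers, with Krt8 at 520 FPKM.

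Against the morulae of the stage table, it was the TE column that stood apart. In TE 27 of 75 members were lower than in morulae (36%, against 17.3% of genes) and 4 were higher (5.33%, against 22%). Among genes of 5 to under 50 FPKM it was 26 and 4 of 72, against 16.2% and 23%. The median log2 ratio of TE over morula was -0.70 over members and 0.02 over all genes. Zfp296 (13.3 FPKM in TE and 135 in morulae, log2 ratio -3.25), Zfp820 (2.52 and 26.8, -2.98), Zfp960 (3.86 and 28.2, -2.58), Zfp707 (-2.10) and Zfp428 (-2.09) had the largest differences. Zfp326, Zfp7 and Zfp934 were higher in TE. For ICM over morula, 15 of 91 members were higher and 9 lower, close to the background of 18.2% and 10.4%, with medians of 0.22 and 0.14. Zfp819 (log2 ratio 2.34), Zfp37 (1.97) and Zfp771 (1.88) were the largest gains, while Zfp821 (-2.30), Zfp707 (-1.79) and Zfp296 (-1.75) were lower.

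The control morulae of the second table, described below, placed the difference elsewhere. Over its control female morulae, 13 of 68 members were lower in TE (19.1%, against 13.2% of genes) and 14 higher (20.6%, against 25.7%), with a median log2 ratio of -0.01. Over control male morulae, 10 of 66 were lower in TE (background 11.6%) and 9 higher (19.8%), with a median of 0.09. In ICM, 37 of 85 members were higher than in control female morulae (43.5%, against 26.9%) and 2 lower (background 9.93%). Against control male morulae it was 35 of 86 higher (40.7%, against 19.9%) and 1 lower (background 8.26%), with a median log2 ratio of 0.82 over members and 0.32 over all genes. The knockout morulae of that table gave a result nearer to that of the stage table. Over them 20 of 75 members were lower in TE (26.7%, against 14%) and 9 higher (12%, against 23.1%), with a median of -0.38. In ICM 22 of 91 were higher (24.2%, against 21.2%) and 6 lower (6.59%, against 9.21%). Whether members were lower in TE or higher in ICM than before thus changed with the morulae used, while ICM over TE rests on none of them. These ratios cross separate tables, were added after the data were seen, and share columns with those above. ICM and TE were among the columns that chose the members, and the columns of the morula table were not. A gene high only in the latter could enter the background but not the members, which favours members higher in ICM and TE. The part of this choice in the counts was not tested.

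From the 8-cell stage to the morula, 17 of 72 members were higher and 6 lower, where the background was 31.9% and 6.21%. All genes had shifted upward, with a median log2 ratio of 0.49, against 0.36 over members. With ratios centred on that shift, 6 members were higher (8.33%, against 17.8% of genes) and 15 lower (20.8%, against 16.4%). Zfp428 (15.2 FPKM in morulae and 1.98 at the 8-cell stage, log2 ratio 2.44), Zfp553 (2.04) and Zfp212 (1.79) gained most, and Zfp644 (0.661 and 8.57 FPKM, -2.53) and Zfp317 (-1.69) were lower. Of 14 members on chromosome 7, 7 were higher and none lower. Of 13 on chromosome 17 none was higher and 2 were lower. These counts by chromosome are not centred, and other genes of the 2 chromosomes were not counted.

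**Figure D3:**
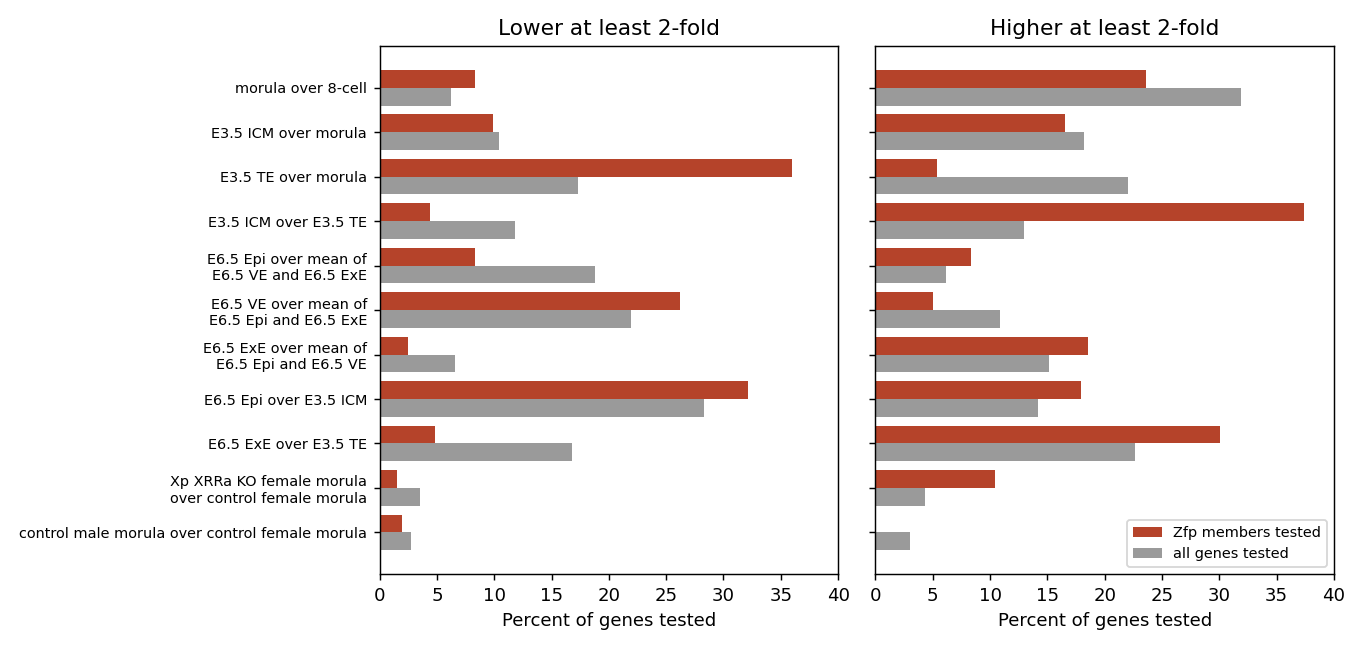
Percent of members tested (red) and of all genes tested (grey) that were lower (left) or higher (right) by at least 2-fold on total FPKM plus 1 in each comparison. The members differ most from all genes in ICM over TE (37.4% higher against 13%) and TE over morula (36% lower against 17.3%).

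Each E6.5 tissue was compared with the average of its 2 neighbours. In Epi 7 of 84 members were higher and 7 lower, against 6.18% and 18.8% of genes. Zfp946 (11.3 FPKM in Epi and a mean of 2.44 elsewhere, log2 ratio 1.84), Zfp105 (22.6 and 5.82, 1.79) and Zfp266 (32.2 and 8.95, 1.74) led the genes higher in Epi. The Epi column rests on 1 sample. In VE 4 of 80 members were higher (background 10.9%) and 21 lower (26.2%, against 21.9%). All genes were also shifted down in VE, with a median log2 ratio of -0.38 against -0.66 over members, and with ratios centred on that shift 5 members were higher and 7 lower, against 17.1% and 12% of genes. Before that centring KRAB genes had the lower values, with 14 of 36 lower and a median log2 ratio of -0.90. For the others it was 7 of 44 and -0.45, and the classes were not counted with centred ratios. Zfp362 (5.02 FPKM in VE and 0.732 elsewhere, log2 ratio 1.80) and Zfp91 (1.30) were higher in VE.

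In ExE 15 of 81 members were higher and 2 lower, against 15.1% and 6.62%. With ratios centred on the median of all genes, 0.36, it was 6 higher and 6 lower, against 9.14% and 10.7%. Zfp382, a KRAB gene of chromosome 7, was at 14.3 FPKM in ExE, at 0.743 in Epi and 0.292 in VE, and listed at 0 or no higher than 0.299 FPKM in the 4 earlier columns. No other member with its highest level in ExE had so large a log2 ratio over the other E6.5 tissues (3.34). Zfp667 (1.91) and Zfp446 (1.72) followed. The lower pair was Zfp946 and Zfp266. Before that centring, members on chromosome 7 were higher in 10 of 18 cases, with none lower. Shares over other genes of that chromosome were not counted.

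Between E3.5 ICM and E6.5 Epi members differed in both directions. Of 106 members, 19 were higher and 34 lower in Epi than in ICM (17.9% and 32.1%, against 14.2% and 28.3%). The median log2 ratio was -0.20 over members and -0.26 over all genes. Zfp266 was listed at 0 in 8-cell embryos and did not exceed 0.236 FPKM in the next 3 columns, then stood at 32.2 FPKM in Epi, 9.81 in VE and 8.09 in ExE. Its log2 ratio of Epi over ICM was 4.75, followed by Zfp946 (2.89), Zfp644 (2.73), Zfp41 (2.63) and Zfp326 (2.58). Zfp296 (-2.93), Zfp819 (-2.77), Zfp936 (-2.66), Zfp820 (-2.59) and Zfp553 (-2.37) were lower. On chromosome 7 the count was 1 higher and 13 lower of 24 members, and other genes of that chromosome were not counted. For ExE over TE, 25 of 83 members were higher and 4 lower (background 22.6% and 16.8%), with medians of 0.52 and 0.22. Zfp266, Zfp105, Zfp428 and Zfp771 were among the gains, and Zfp947, Zfp821, Zfp949 and Zfp932 were lower.

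The cofactors through which KRAB proteins act were followed in a list of 20 genes, which was drawn up with earlier results of these data known. Trim28, the shared corepressor, was at 70.4 FPKM in 8-cell embryos, 85.3 in morulae, 105 in ICM, 52.8 in TE, 221 in Epi, 87.6 in VE and 101 in ExE. TE was the lowest and Epi the highest. Setdb1, the methyltransferase it recruits, lay between 5.39 FPKM in 8-cell embryos and 18.6 FPKM in ExE. Of 17 listed genes that could be compared between ICM and TE, 4 were higher in ICM and none lower (background 13% and 11.8%), with a median log2 ratio of 0.35 against 0.10 over all genes. These were Atf7ip, the partner of Setdb1 (16.3 and 4.76 FPKM), Uhrf1, which brings the maintenance methyltransferase to DNA (69.7 and 11.8), Hdac1, a histone deacetylase (229 and 85.9), and Zfp57, the imprint-binding KRAB protein (10.98 and 0.237). Between ICM and Epi 6 of 18 were higher in Epi, Trim28, Cbx1 and Cbx3 among them, and 2 were lower, Uhrf1 and Zfp57 (background 14.2% and 28.3%). Mphosph8 and Fam208a were listed at 0 in every column of the stage table. Fam208a was not at 0 throughout the morula table, where its log2 ratio of control male over control female morulae was 0.37.

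The morulae with the Xp XRRa deletion gave values that had no part in choosing the members. Of 67 members that reached 5 FPKM in the knockout or the control female column, 7 were higher in the knockout (10.4%, against 4.28% of 5590 genes) and 1 was lower (1.49%, against 3.52%). Among genes of 5 to under 50 FPKM it was 7 and 1 of 65, against 5.06% and 3.57%. The median log2 ratio was 0.46 over members and 0.05 over all genes. Above 0 lay 52 members and below it 15, a split that was not counted over all genes. KRAB genes made up 6 of the 7, with a median log2 ratio of 0.67 over 33 tested, against 0.22 over 34 others. Zfp820 stood at 20.7 FPKM in knockout, 7.04 in control female and 7.99 in control male morulae (log2 ratio over control female 1.43). For Zfp960 the values were 25.1, 10.8 and 5.96 FPKM, for Zfp51 18.7, 7.79 and 9.62 FPKM, and for Zfp600 5.49, 0.994 and 0.588 FPKM. Zfp869, Zfp873 and Zfp451 were the others. In all of these the knockout value was the highest of the 3. Zfp36 was lower, at 5.89 FPKM against 13.6 in control female and 5.72 in control male morulae. Without members that share 20% or more of their words with another gene, 5 were higher, since Zfp960 and Zfp600 drop out.

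The wild-type morulae of the stage table bear on this result. All 7 members higher in the knockout had a stage-table morula value above that of the control female morulae, and in 4 of the 7 the knockout exceeded the stage-table value. Zfp820 was at 26.8 FPKM in stage-table morulae, near the 20.7 FPKM of the knockout, and Zfp960 was at 28.2 against 25.1 FPKM. Over the stage-table morula, control female morulae had a median log2 ratio of -0.79 for members and -0.33 for all genes, with 2 of 69 members higher and 23 lower (background 11% and 18.3%). In control male morulae the medians were -0.75 and -0.21, with 1 of 68 higher and 27 lower (background 13.6% and 17.8%). In the knockout they were -0.24 and -0.25, with 1 of 72 higher and 5 lower (background 7.81% and 8.29%). The members of the knockout column were thus nearer to the wild-type morulae of the stage table than those of the control columns were. The stage-table morula was among the columns that chose the members and the columns of the morula table were not. This choice favours members lower in all columns of the morula table, and its part in these values was not tested. Differences between collections of morulae and the effect of the deletion cannot be told apart in these pooled columns. Control males differed little from control females: none of 52 members was higher and 1 lower, Zfp36, against 3% and 2.73% of genes. Of 17 listed KRAB cofactors none passed the size rule in the knockout, with a median log2 ratio of 0.36.

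**Figure D4:**
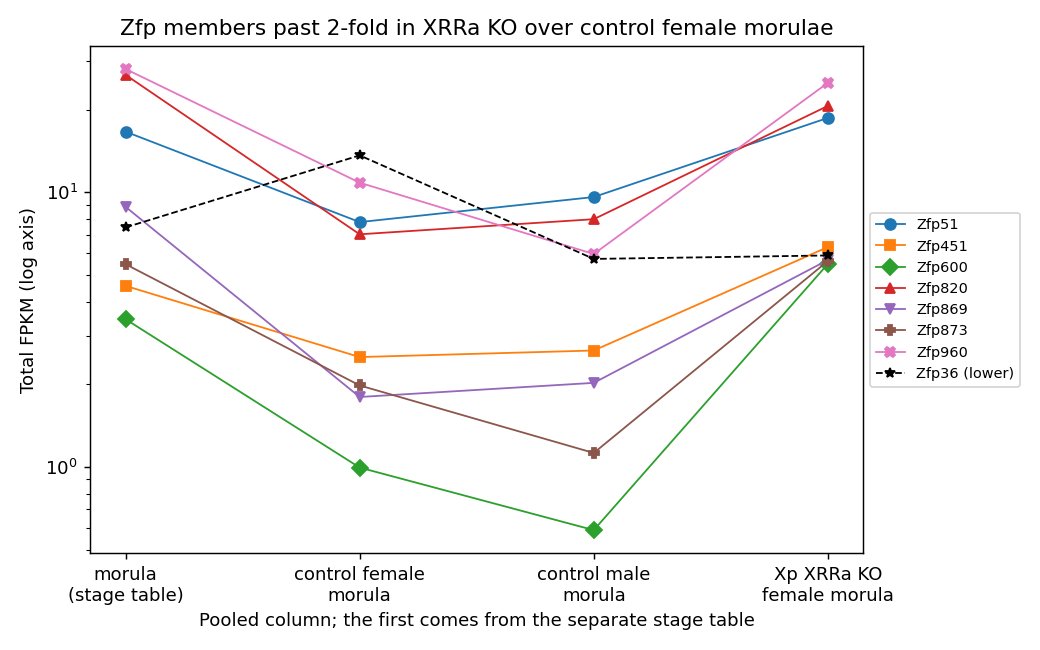
Total FPKM (log axis) of the 8 members past the size rule in Xp XRRa KO over control female morulae, in the 4 pooled morula columns. The 7 higher members (solid lines) lie above the control female value both in the knockout and in the stage-table morula, and Zfp36 (dashed) lies below it in both.

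In the 7 stage columns the median share of FPKM from the paternal allele was close to that of other autosomal genes. Over members of at least 1 FPKM, the median share came to 49.8% at the 8-cell stage, 47.9% in morulae, 47.0% in ICM, 47.9% in TE, 49.9% in Epi, 49.7% in VE and 48.7% in ExE. The medians of all autosomal genes lay between 46.8% and 49.2% in the same columns. In the morula table the median was 45.0% in control males, against 49.1% for autosomal genes. It was 50.2% in control females and 48.4% in the knockout, against 49.2% and 49.3%. At 5 FPKM or more, 43.8% of members lay from 40% to 60% in control males, against 65.1% of autosomal genes. In 8-cell embryos it was 45.8% against 56.6%. Of all columns only ExE had the larger share among members (86.1% against 80.3%). Members of at least 5 FPKM were also counted where the share was 20% or less or 80% or more. The count was 3 of 48 in 8-cell embryos (6.25%, against 8.45% of autosomal genes), 4 of 63 in morulae (6.35%, against 5.77%), 8 of 82 in ICM (9.76%, against 4.65%) and 3 of 53 in TE (5.66%, against 4.37%). At E6.5 it was 3 of 72 in Epi (4.17%, against 3.62%), 4 of 52 in VE (7.69%, against 2.42%) and 2 of 72 in ExE (2.78%, against 4.35%). The members stood furthest above the background in ICM and VE, on 8 and 4 genes. Those in VE were Zfp598 and Zfp422 at 0%, Zfp869 at 7.69% and Zfp868 at 20%, none above 7.01 FPKM. Zfp598 was at 100% in ICM and 85.7% in ExE, so its share did not hold between columns. The number of reads behind these shares is unknown. In the yolk sac column 12 of 17 members lay at 20% or less or 80% or more, where 41.3% of autosomal genes did. Of 80 members with at least 1 FPKM in all 7 columns, 12 were below 50% in each (15%) and 7 above (8.75%). This was also the pattern of 5284 autosomal genes, with 15.3% and 7.51%.

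A few members kept a skewed share across columns. Zfp947, a KRAB gene of chromosome 17, was almost wholly maternal, with a paternal share of 0% in 8-cell embryos, morulae, ICM and Epi, 0.412% in TE, 7.02% in VE and 4.37% in ExE. Its level was 9.66 FPKM in 8-cell embryos, 3.46 in morulae, 2.1995 in ICM and 6.70 in TE, and at most 1.10 FPKM at E6.5. In Epi (0.398 FPKM) and VE (0.630 FPKM) it was under the 1 FPKM asked of a share, so those 2 values are given for completeness only. The morula table gave 0.516% in control males, 8.69% in control females and 0.647% in the knockout. Its columns were also searched for extreme shares, so it is not separate from the choice of the genes named here. Zfp935 leaned the other way, at 67.6% in 8-cell embryos, 67.8% in morulae, 73.8% in ICM, 69.6% in TE, 87.5% in Epi, 68.3% in VE and 70.0% in ExE. In the morula table it was at 75.3%, 75.9% and 77.2% in the same order of groups. All words of Zfp935 lay also in Gm49359, as given above, so its share may include reads of that gene. Zfp1 lay between 14.9% and 39.2% in the 7 columns and between 36.5% and 39.8% in the morula table. Zfp825 lay between 16.5% and 43.4%, and between 19.4% and 36.2%. The direction of Zfp935, Zfp1 and Zfp825 was thus the same in all 10 columns.

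Other shares moved with the stage or between tables. Zfp936 was at 11.8% in 8-cell embryos, 18.1% in morulae and 14.9% in ICM, while its total fell from 42.3 to 23.9 FPKM, and it reached 54.1% in VE at only 1.76 FPKM. In the morula table it ranged from 20.3% in the knockout to 49.9% in control males. Zfp330, at 58.6% to 78.6% in the 7 columns, stood at 50.7% in control female morulae. Zfp207, below 50% in all 7 columns, had 61.2% in the knockout. Zfp600 was at 100% wherever it was listed above 0 in the 7 columns, and at 93.2% in the knockout. It shared 75.2% of its words with Rex2, so its share may include reads of that gene. All samples in these tables carry the same cross label, so the effect of the parent and that of the strain cannot be told apart, and how reads were assigned to an allele is not given in the sources used here.

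**Figure D5:**
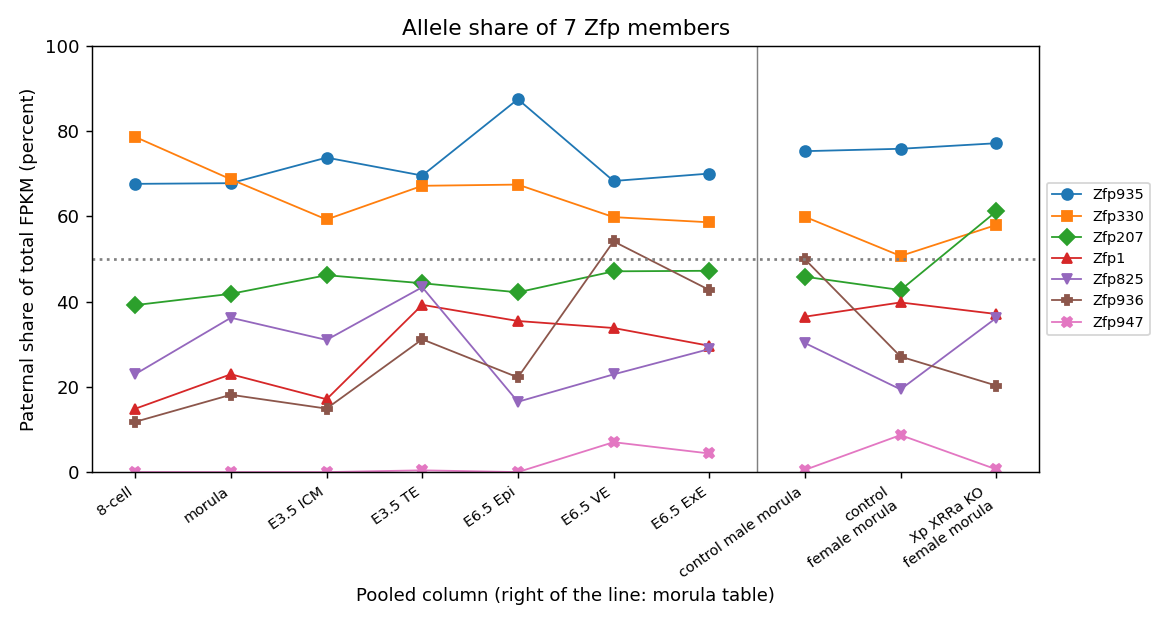
Paternal share of total FPKM (percent) of 7 members in the 7 pooled stage columns (left of the line) and 3 pooled morula columns (right), with a dotted line at 50%. Zfp935 lies above 50% in all 10 columns, Zfp947 between 0% and 8.69%, and Zfp936 ranges from 11.8% to 54.1%.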

How the data were processed

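The 125 members, the role lists, the cofactor list and the marker lists were chosen with earlier results of these data known. RNA was captured by oligo-dT and amplified with Smart-seq2, per the labels' protocols, which does not keep strand. Trim Galore 0.6.4, HISAT2 2.2.0, StringTie 2.1.1 and mm9 stand in the submitters' processing notes. The authors deposited FPKM per allele, with the replicates of a group merged into 1 maternal and 1 paternal column. Here both were summed to a total, and ratios were taken on log2(total FPKM + 1). Paternal shares were taken at a total of at least 1 FPKM. The planned limma test on the E7.5 table was not run, since no member is in it. The ratio rule was run on a copy of the morula column in which 200 genes were changed 4-fold without added noise. Its outcome was fixed by that setting, so it checks the code only and not calls near 5 FPKM. Finger and KRAB patterns were read from GENCODE M21 (fingers: cysteines 2 to 4 apart, a loop of 12 residues, histidines 3 to 5 apart). Named genes are the 5 with the largest ratio per direction above 0 in both columns, list members and the extremes of level and share. Other named genes were chosen after their values were seen. Python 3.11.15, pandas 2.3.3 and numpy 2.4.6 were used.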

Additional observations from a re-analysis of the deposited data

How the results depend on the processing

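Of 145 alternative values, 128 stayed within a set limit and 17 did not. For counts the limit was 1.5 times the reported count, and for shares a 95% interval of the median over member genes. That interval reflects spread between genes, not between samples. In the yolk sac it ran from 12.5% to 100%, so a share within it shows little about stability. All counts for ICM over TE stayed within 1.5 times the reported count in the alternatives run. So did those for ICM over morula and Epi over ICM within the stage table. With a minimum of 1 FPKM more members were tested. Morula over 8-cell then gave 33 higher of 112 (17 of 72 before), Epi 12 lower of 122 and ExE 4 lower of 122. The knockout gave 13 higher and 2 lower of 113, and control males 2 lower of 110. Shares of all genes were not counted at this minimum. With ratios centred on the median of all genes, morula over 8-cell gave 6 higher and 15 lower, VE 7 lower, ExE 6 higher and 6 lower, ExE over TE 7 lower and control males 2 lower. With a pseudocount of 0.1 FPKM, TE over morula gave 7 higher, and control males 2 higher and 4 lower. As a ratio of summed FPKM the paternal share of the members in control male morulae was 48.8%, against a median of 45.0%. The cause of these shifts was not tested. Chosen after seeing the data were the counts without members listed at 0, without members that share sequence, with control males as reference (9 higher and 1 lower in the knockout) and every ratio across the stage and morula tables. Against control female morulae the count lower in TE was 13 in place of 27, and the count higher in ICM was 37 in place of 15. No paired analysis was possible because the replicates of each group are merged in 1 column per allele. For the same reason no replicate could be left out. The test planned on the E7.5 table was not run because it holds no member.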
